A study of Mus musculus with 2 samples.

Results

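Chemokine genes and their receptors were examined in mouse liver 3 days after an adenovirus was injected into a vein. The family was taken from the gene symbols of the array annotation: every gene with a symbol that starts with Ccl, Cxcl, Cx3cl, Xcl, Ccr, Cxcr, Cx3cr, Xcr or Ackr and goes on with a digit. It has 54 members among 18193 named genes, made up of 33 ligands and 21 receptors. All mice were C57BL/6J, 2 months old, and received 1000000000 plaque-forming units of either an empty vector (Ad-control) or a vector carrying PDK4 (Ad-PDK4), a kinase that inactivates the pyruvate dehydrogenase complex. Both groups therefore carried adenovirus, and uninjected livers were not analysed here. RNA of 4 Ad-control livers formed 1 pool and RNA of 3 Ad-PDK4 livers formed the other, and each pool was measured on 1 array. With 1 array per group there is no test: the spread between mice cannot be measured, and every value describes these pools. The sources used here do not give the promoter that drives PDK4 in the vector or the sex of the mice.

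Chemokines are small secreted proteins that form gradients on the sugar chains of endothelium and matrix and guide leukocytes toward them. The CC and CXC classes are named for the spacing of conserved cysteines near the start of the protein, and each ligand acts through G protein-coupled receptors of the matching class. The atypical receptors bind the same ligands without G protein signalling and remove or store them. In the liver, chemokines are made by Kupffer cells, sinusoidal endothelium, hepatocytes and arriving leukocytes, and adenovirus in the liver is a known trigger of several of them. In whole tissue, a change in the number of cells of a type and a change in RNA per cell cannot be told apart.

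A signal is the deposited linear brightness of a probe set, a group of short probes for the same transcript. A floor was set at the median non-control probe set of each array (93.4 for Ad-control, 99.9 for Ad-PDK4), and a gene is called measured on both arrays when its brightest probe set reached the floor of each. Differences are Ad-PDK4 minus Ad-control on the log2 scale, relative to the median probe set. The spread between the probe sets of a gene, with a pooled SD of 0.35, served as the error scale, although it leaves out error shared by a whole pool or array. Signals of different probe sets depend on the probes, so they do not rank genes by abundance. Pdk4 itself had signals of 234 (Ad-control) and 177 (Ad-PDK4), so its only probe set does not show the overexpression that the label names, and the pools are called by their labels. Albumin and the 5 other hepatocyte markers were far above the floor on both arrays, with log2 differences of -0.34 to 0.079.

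Most of the family was dim. Of the 54 members, 21 (38.9%) were above the floor on both arrays, against 57.1% of all named genes. Counting members above the floor on either array gave 28 (51.9%), against 66.6%. Of these, 4 members were above it in the Ad-PDK4 pool alone (5.21% of all named genes) and 3 in the Ad-control pool alone (4.31%). The other 26 members were above it in neither pool. Measured on both arrays were 7 of 18 CC ligands, 8 of 13 CXC ligands, 3 of 17 signalling receptors and 3 of 4 atypical receptors, and neither of the CX3C and XC ligands.

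Few members differed by 1.5-fold or more. Of the 28 members with a signal above either floor, 3 (10.7%) were at least 1.5-fold higher in the Ad-PDK4 pool, namely Ccl4, Ccl9 and Cxcl10, and 2 (7.14%) at least 1.5-fold lower, Ccl6 and Ccl8. Over all genes above the floor on either array, 11.0% were higher and 5.58% lower by the same measure, so the family's shares lay near the background. All 5 are ligands, and 0 of the 10 receptors above the floor lay beyond 1.5-fold. The receptor Ackr4 lay so near the line (-0.57) that it crossed it without centring and after quantile normalization. It also crossed the line, at -0.588, with the floor at the 30th percentile. Among genes measured on both arrays, 9.21% were higher and 5.20% lower by that fold. The split rests on the reference level. With differences centred on the arrays' hybridization controls instead of the median probe set, 10 members were 1.5-fold higher and 0 lower. With the poly-A controls 17 were higher and 0 lower. All genes moved the same way, with medians of 0.27 and 0.53. Of the 12121 genes above either floor, 2832 were then higher and 225 lower with the hybridization controls, and 5502 and 65 with the poly-A controls. With the median probe set these counts were 1335 and 676. The differences of Ccl27a and Cxcl12 changed sign with both references, and those of Cxcl14 and Cxcl16 with the poly-A controls.

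**Figure D1:**
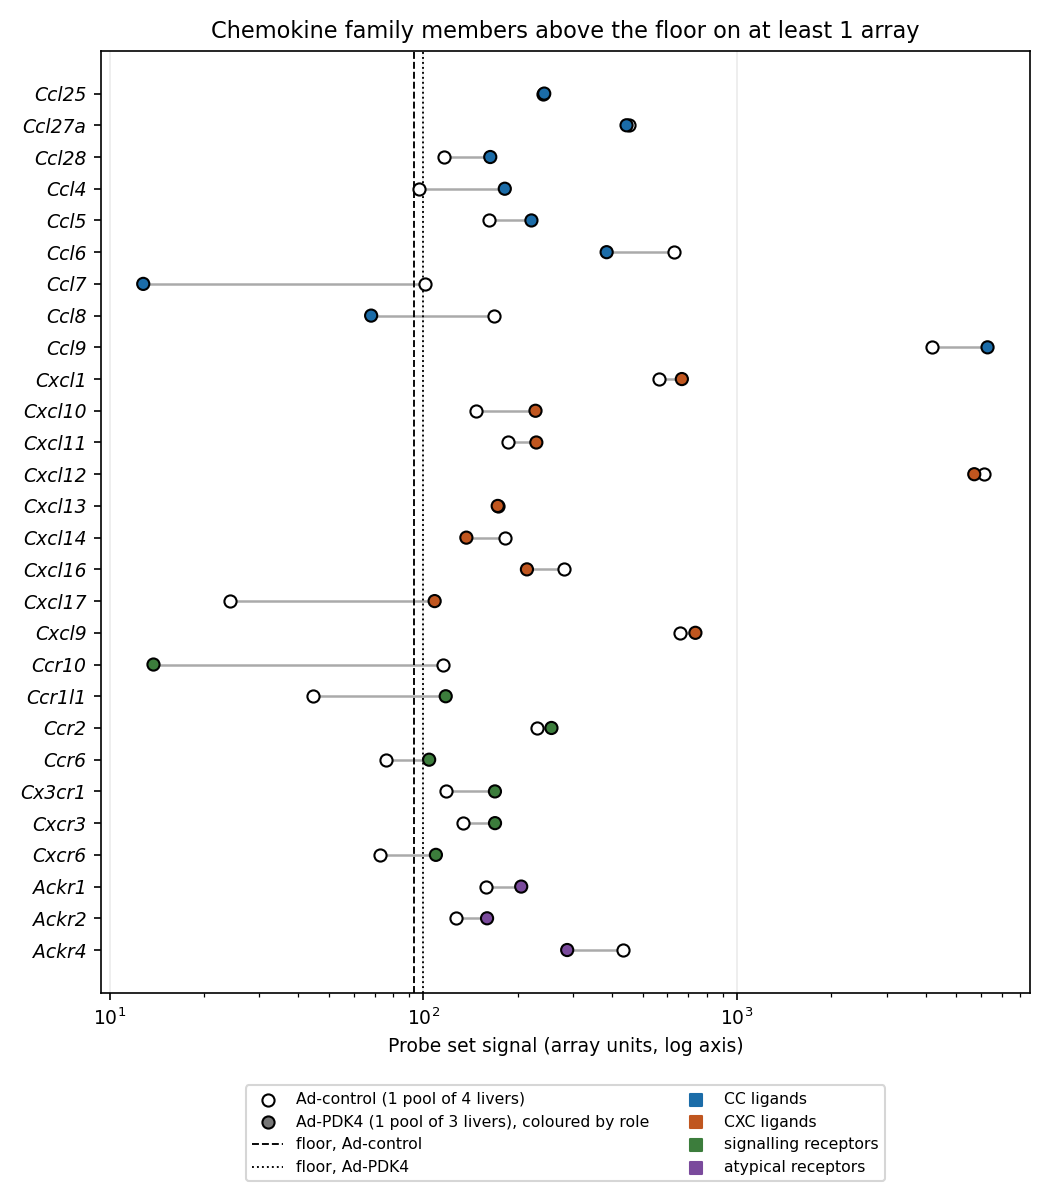
Signals of the 28 family members above the floor on either array, on a log axis in array units. Open circles are the Ad-control pool, filled circles the Ad-PDK4 pool coloured by role, and the dashed and dotted lines the floors (93.4 and 99.9). Ccl9 and Cxcl12 lie far above the floor, and the other members measured on both arrays have signals between 97.0 and 737.

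The inflammatory CC ligands went in different directions. Ccl9, a macrophage inflammatory protein that acts on Ccr1, had a signal of 4173 in the Ad-control pool and 6293 in the Ad-PDK4 pool. This is a 1.52-fold higher level, just past the 1.5-fold line. The other Ccl9 probe set read 1720 and 2994, a 1.76-fold higher level, so both probe sets put the Ad-PDK4 pool higher. Ccl9 was among the brightest 2078 genes measured on both arrays, of which 2.89% were 1.5-fold higher.

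Ccl6, a related ligand of Ccr1 made by myeloid cells, had a signal of 629 (Ad-control) and 384 (Ad-PDK4), a 1.62-fold lower level. Its other probe set went the opposite way, from 133 to 219, a log2 difference of 0.73 against -0.70. That second probe set is of a kind that can match several transcripts, and the direction of Ccl6 is not settled. With the median of its probe sets the difference was 0.018.

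Ccl9 and Ccl6 are neighbours in a cluster of CC ligand genes that runs, with no other protein-coding gene between them in the RefSeq gene table, as Ccl5, Ccl9, Ccl6, Ccl3 and Ccl4. Ccl4 and Ccl3 are the beta and alpha forms of macrophage inflammatory protein 1. Ccl4 gave 97.0 (Ad-control) and 181.9 (Ad-PDK4) on its only probe set. The difference of 0.92, or 1.89-fold, was the largest among the family members measured on both arrays, but the Ad-control value lay at the floor. Ccl3 was under the floor on both arrays, with 14.2 and 4.8. Ccl5, which recruits T cells and monocytes, gave 162 and 221, a 1.38-fold higher level. In this cluster Ccl4, Ccl5 and Ccl9 were higher in the Ad-PDK4 pool, and the direction of Ccl6 is not settled.

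The sequences before the starts of Ccl9 and Ccl6 are shown because these adjacent genes had opposite differences on their brightest probe sets. They are the 250 bases upstream of the start in RefSeq (GRCm38.p6, minus strand, given 5′ to 3′ along the gene), at chr11:83578637-83578886 for Ccl9 and chr11:83593088-83593337 for Ccl6. Capitals mark matches to 5 motifs searched on both strands: GGANNNTCC for NF-kappaB, GAAANNGAA for the interferon-stimulated response element (ISRE), TTCNNNGAA for the gamma-activated site (GAS) bound by STAT factors, TGANTCA for AP-1, and TATAAA for the TATA box. Matches of different motifs did not overlap in the windows shown.
Ccl9: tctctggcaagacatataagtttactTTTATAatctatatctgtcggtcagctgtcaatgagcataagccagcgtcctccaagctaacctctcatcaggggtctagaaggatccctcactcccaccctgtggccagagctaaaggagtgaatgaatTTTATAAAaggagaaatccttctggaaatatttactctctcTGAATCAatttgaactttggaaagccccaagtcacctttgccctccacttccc
Ccl6: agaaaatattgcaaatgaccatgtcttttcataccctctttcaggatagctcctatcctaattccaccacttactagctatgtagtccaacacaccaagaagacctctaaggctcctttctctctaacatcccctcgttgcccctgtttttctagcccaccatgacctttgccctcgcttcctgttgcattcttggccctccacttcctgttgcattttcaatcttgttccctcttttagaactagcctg
The Ccl9 stretch held an AP-1 match that starts 53 bases before the gene, and 3 TATA matches, of which those starting at 94 and 92 bases overlap on opposite strands. The Ccl6 stretch held none of the 5 motifs.

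The second CC cluster holds the monocyte chemoattractants, in the order Ccl2, Ccl7, Ccl11, Ccl12, Ccl8 and Ccl1. Ccl8, a ligand of Ccr8 in the mouse, gave 168.5 in the Ad-control pool and 68.2, under the floor, in the Ad-PDK4 pool. It was at least 1.67-fold lower. Ccl7, a ligand of Ccr2, gave 102 and 12.8, but the Ad-control value lay so close to the floor that the bound was only 1.01-fold. Ccl2, the main ligand of Ccr2, was under the floor on both arrays, with 7.6 and 11.8. So were Ccl11 (3.0 and 6.0), Ccl12 (7.0 and 4.7) and Ccl1 (15.1 and 98.8). In this cluster no member was measured on both arrays, and both members above the floor on 1 array were so in the Ad-control pool.

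Of the homeostatic and mucosal CC ligands, Ccl25 and Ccl27a lay near 0 and Ccl28 did not. Ccl25, which draws T cells through Ccr9, gave 240.2 and 243, and its second probe set 162 and 141. Ccl27a, a skin-homing ligand of Ccr10, gave 454 and 445 on a probe set of a kind that can match several transcripts. Brighter probe sets that carry several symbols, Ccl27a and Ccl27b among them, gave 784 and 686 (-0.18) and 703 and 564 (-0.30). The log2 differences of Ccl25 and Ccl27a, 0.031 and -0.015 on the brightest probe sets with 1 symbol, were well inside the error scale. Ccl28, which also binds Ccr10, gave 117 and 163.5, a 1.42-fold higher level with a log2 difference of 0.50, beyond the error scale. A second Ccl28 probe set was above the floor only on the Ad-PDK4 array, with 89.3 and 108, and the remaining probe set was under the floor on both.

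Among the CXC ligands, the 3 ligands of Cxcr3, the receptor of activated T and NK cells, had a higher signal in the Ad-PDK4 pool on their brightest probe sets, and for Cxcl9 the probe sets disagreed. Cxcl10 gave 147 (Ad-control) and 228 (Ad-PDK4), a 1.57-fold higher level. Cxcl11 gave 186 and 229 (1.25-fold), and its other probe set, at 19.8 and 49.3, was under the floor on both arrays. In the C57BL/6 strain the Cxcl11 gene is known to carry a frameshift, so this transcript is not expected to yield the protein. Cxcl9 gave 658 and 737 (1.13-fold). The second Cxcl9 probe set went the other way, from 146 to 51.2, the latter under the floor, and with the median over both probe sets the log2 difference was -0.66. The direction of Cxcl9 is therefore not settled. Cxcr3 itself gave 134 and 169, a 1.27-fold higher level. Of these 4 genes only Cxcl10 lay past 1.5-fold, and the differences of the other 3 were within the SD of 0.35 between probe sets.

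The stretches before Cxcl9 and Cxcl10 are shown because both genes are induced by interferon, act on the same receptor and had signals above the floor on both arrays. They cover chr5:92328080-92328329 and chr5:92348890-92349139 (GRCm38.p6, minus strand, RefSeq), with the same motifs in capitals.
Cxcl9: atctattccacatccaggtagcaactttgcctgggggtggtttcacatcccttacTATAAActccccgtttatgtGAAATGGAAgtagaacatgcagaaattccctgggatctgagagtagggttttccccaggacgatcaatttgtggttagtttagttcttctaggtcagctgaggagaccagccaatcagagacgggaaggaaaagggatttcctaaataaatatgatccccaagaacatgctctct
Cxcl10: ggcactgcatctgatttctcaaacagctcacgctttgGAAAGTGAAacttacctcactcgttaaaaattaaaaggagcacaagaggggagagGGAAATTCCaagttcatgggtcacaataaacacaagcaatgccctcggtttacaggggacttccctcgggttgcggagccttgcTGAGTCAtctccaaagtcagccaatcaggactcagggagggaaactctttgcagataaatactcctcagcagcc
Cxcl10 had an ISRE match that starts 213 bases before the gene, an NF-kappaB match at 158 and an AP-1 match at 74. Cxcl9 had an ISRE match at 175 bases and a TATA match at 195. A match is a description of letters, and a missing match says only that these letters are not in this window.

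Of the 54 members, 41 had an upstream window in the RefSeq table, and the first listed window was used where a gene had several. Of the 21 members measured on both arrays, 17 had a window. Members without a window, among them Ccl4, Ccl5 and Cxcl11, were not searched for motifs. An NF-kappaB match was present in 9 of the 41 (22.0%), against 7.27% of all 32851 windows. TATA matches were present in 13 (31.7%, against 12.4% of all windows), ISRE matches in 6 (14.6%, against 7.13%), and AP-1 and GAS matches in 4 each (9.76%, against 6.75% and 7.02%). The NF-kappaB matches belonged to Cxcl1, Cxcl2, Cxcl3, Cxcl10, Ccl1, Ccl12, Ccl22, Ccr1 and Ccr3. Of these 9 genes only Cxcl1 and Cxcl10 were measured on both arrays, with a higher signal in the Ad-PDK4 pool, and the others were under the floor on both. The ISRE matches belonged to Cxcl9, Cxcl10, Cxcl14 and Ccr2, all measured on both arrays, and to Ccl1 and Ccl3, which were under the floor. Of those 4 measured genes, Cxcl14 was the only 1 with a lower signal in the Ad-PDK4 pool on its brightest probe set. Neighbouring ligand genes such as Cxcl1, Cxcl2 and Cxcl3 are related in sequence, so their matches are not independent. The 2 kinds of share also differ in unit: each member counts with 1 window, while the background counts all windows, including several of a gene. The NF-kappaB and ISRE letters were shortened after a first search, so the shares describe these windows and are no test of enrichment.

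**Figure D2:**
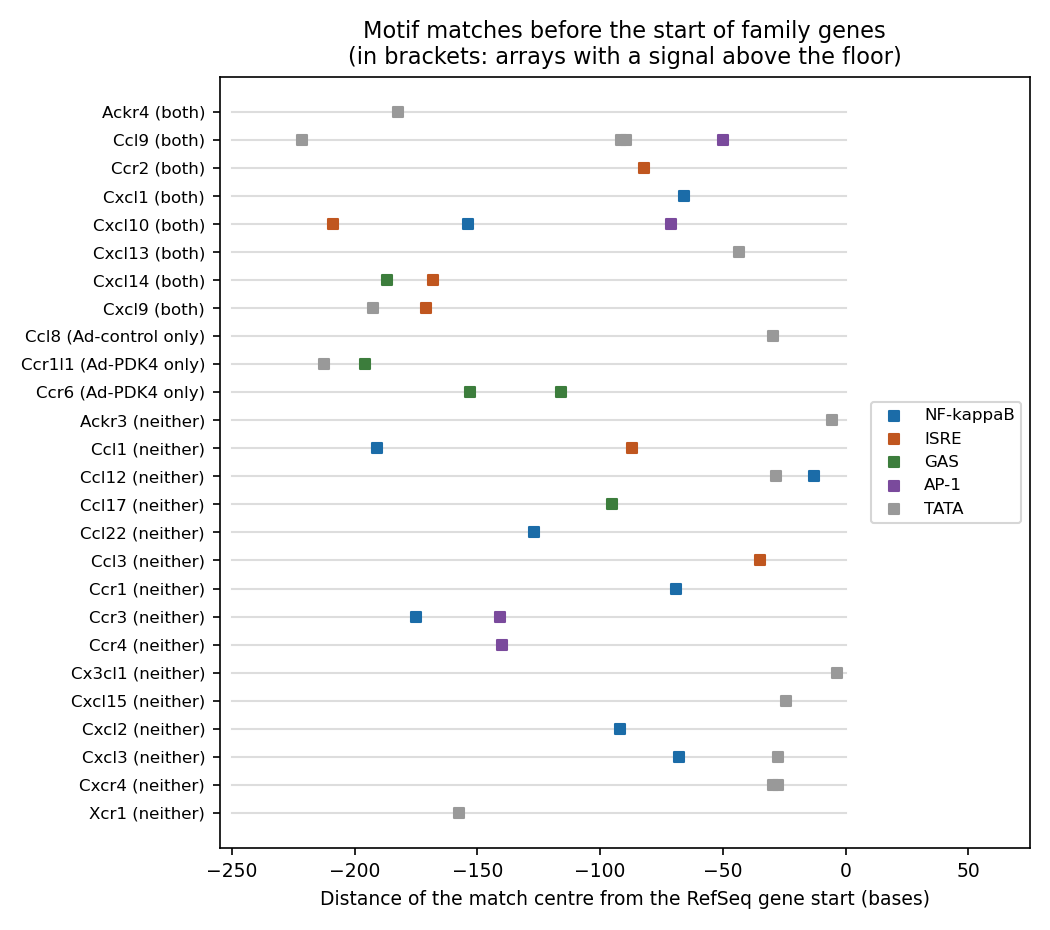
Positions of motif matches in the 250 bases before the RefSeq start of the 26 family genes with at least 1 match, as distance in bases from the start. Squares are coloured by motif, and brackets give the arrays on which the gene's signal was above the floor. Of the 9 genes with an NF-kappaB match, Cxcl1 and Cxcl10 were measured on both arrays.

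Cxcl1, the main neutrophil attractant of the mouse, was measured by 3 probe sets. They gave 563 and 667, 373 and 503, and 358 and 499 in the Ad-control and Ad-PDK4 pools. All 3 put the Ad-PDK4 pool higher, by log2 differences of 0.26, 0.44 and 0.49. The brightest, used for the gene, is of a kind that can match several transcripts. Cxcl2 (44.3 and 50.7), Cxcl3 (28.4 and 43.3) and Cxcl5 (2.6 and 3.4), which act on the same receptor Cxcr2, were under the floor on both arrays. So was Cxcr2 itself, with 9.7 and 62.0.

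Cxcl12, a homeostatic ligand that retains haematopoietic cells through Cxcr4, gave 6145 (Ad-control) and 5709 (Ad-PDK4). Its log2 difference was -0.092, and a second probe set (4484 and 3787) gave -0.23. Both probe sets lay within the error scale. Cxcr4, with 18.9 and 28.8, and the scavenging Cxcl12 receptor Ackr3, with 7.7 and 69.0, were under the floor in both pools.

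Cxcl16, a membrane-bound ligand of Cxcr6, gave 280.5 and 214 on its brightest probe set and 168 and 166 on the other. The differences were -0.38 and -0.00099, so the lower value was not shared. Cxcl14, an orphan-like ligand of epithelia, gave 182 and 137, a difference of -0.39. Cxcl13, the B cell attractant that acts on Cxcr5, gave 173 on both arrays on its brightest probe set. The other Cxcl13 probe set gave 94.6 and 79.9, the latter under the floor. Cxcl17, a mucosal ligand, was above the floor only in the Ad-PDK4 pool, with 24.2 and 109, which is at least 1.18-fold higher. Cxcl15, with 26.9 and 26.8, was under the floor on both arrays.

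Of the signalling receptors measured on both arrays, all 3 had a higher signal in the Ad-PDK4 pool on their brightest probe sets, and none (0) reached 1.5-fold. Ccr2, the receptor of inflammatory monocytes, gave 230.1 and 256, and its second probe set above the floor 139.5 and 187. The log2 differences were 0.17 and 0.44, but the median over all 4 probe sets, the others of which were under the floor, gave -0.025. Cx3cr1, carried by monocytes and resident macrophages, gave 118 and 169, a 1.44-fold higher level that was the nearest of the higher receptors to the 1.5-fold line. Its second probe set, at 30.4 and 21.5, was under the floor. Its ligand Cx3cl1 was under the floor on both arrays, with 78.2 and 90.0 on the brightest of 4 probe sets.

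A further 4 receptors crossed the floor on 1 array. Ccr1l1, an orphan receptor related to Ccr1, gave 44.5 and 118 (at least 1.28-fold higher). Cxcr6, carried by liver-resident lymphocytes, gave 73.0 and 110 (at least 1.19-fold higher). The other Cxcr6 probe set was under the floor on both arrays and read lower in the Ad-PDK4 pool, with 60.3 and 38.4. Ccr6, the receptor of Ccl20, gave 76.1 and 104 (at least 1.13-fold higher). Ccr10 went the other way, with 115 in the Ad-control pool and 13.8 in the Ad-PDK4 pool, at least 1.14-fold lower. All 4 bounds lay within 1.5-fold, since the brighter value in each case was close to the floor.

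The atypical receptors divided. Ackr1, a chemokine-binding protein of venular endothelium and red cells, gave 159 and 205.2, a 1.30-fold higher level. Ackr2, which removes inflammatory CC ligands, gave 127 and 160, 1.27-fold higher, while its other 2 probe sets were under the floor. Ackr4, which removes Ccl19, Ccl21 and Ccl25, gave 432.5 (Ad-control) and 288 (Ad-PDK4). This is a 1.49-fold lower level, just inside the 1.5-fold line, and its second probe set above the floor (345 and 251) gave a log2 difference of -0.44. Both lay beyond the SD between probe sets.

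**Figure D3:**
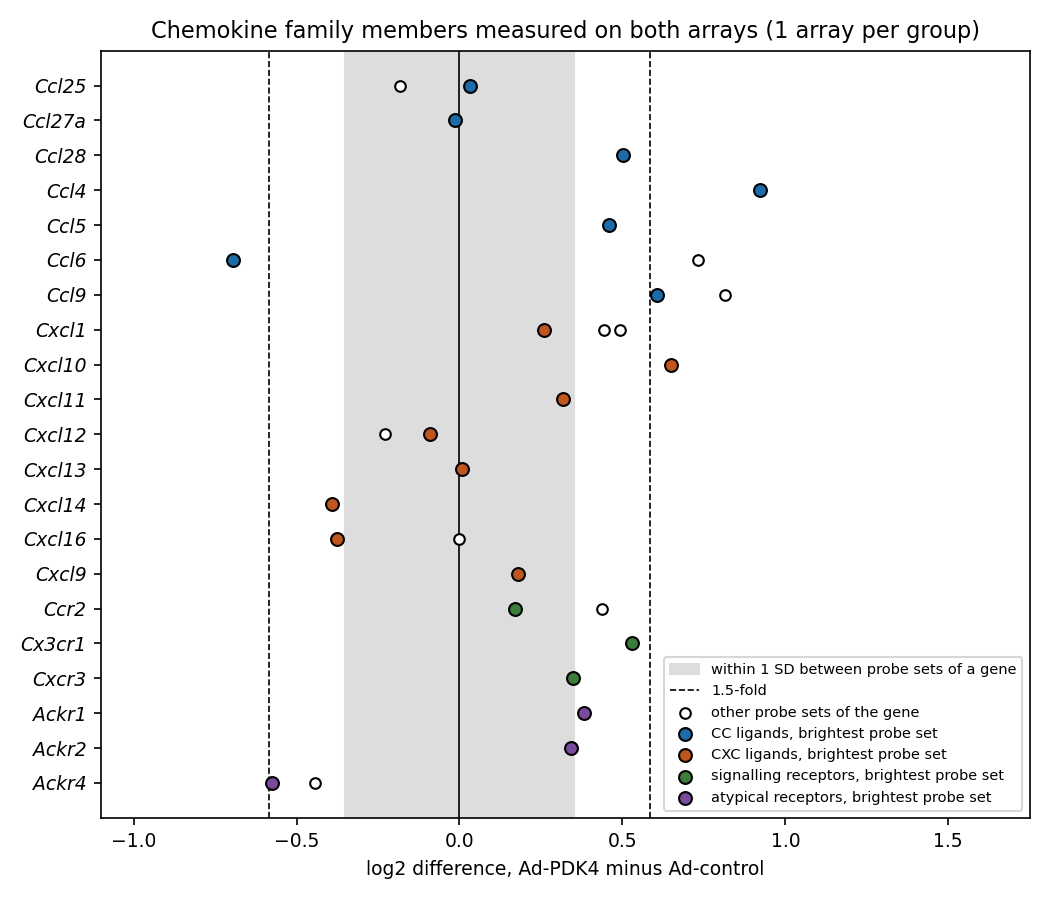
Log2 differences, Ad-PDK4 minus Ad-control, of the 21 members measured on both arrays. Filled points are the brightest probe set of each gene coloured by role, open points its other probe sets above both floors, the grey band spans 1 SD (0.35) between probe sets of a gene, and dashed lines mark 1.5-fold. Ccl4, Ccl9 and Cxcl10 lie beyond the upper line and Ccl6 beyond the lower, with the second Ccl6 probe set on the opposite side.

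The remaining 26 members were under the floor on both arrays, with signals between 2.6 and 99.5. Besides those named above they were the ligands Ccl17 (21.3 and 41.0), Ccl20 (8.9 and 73.8), Ccl22 (82.7 and 52.5), Ccl24 (19.3 and 59.1) and Xcl1 (12.4 and 89.0). The receptors were Ccr1, Ccr3, Ccr4, Ccr7, Ccr8, Ccr9, Cxcr5 and Xcr1, among which Ccr1, the receptor of Ccl9, gave 59.1 and 99.5, just under the floor in the Ad-PDK4 pool. No difference is given for these genes. Their signals can only be said to lie in the dimmer part of the array, not that the transcripts were absent.

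Taken over the 21 members measured on both arrays, 15 (71.4%) had a difference above 0, against 51.6% of all genes measured on both, and the median was 0.26 against 0.015. By role the median was 0.46 for 7 CC ligands, 0.094 for 8 CXC ligands, 0.35 for 3 signalling receptors and 0.34 for 3 atypical receptors. The dim genes of these arrays were shifted the same way: among the dimmest 2078 of these genes (mean signals 98.7 to 236), which held 11 of the 21 members, 59.7% of genes were above 0 and the median was 0.12. With loess centring the family median was 0.25, against 0.022 for all genes measured on both, and after quantile normalization 0.25 against 0.020. The family median also rested on the choice of probe set. With the median over the probe sets of each gene it was 0.0019, over the 16 members then measured on both arrays. Without probe sets of the kinds that can match several transcripts it was 0.33, over 18 members. Differences farther from 0 than the error scale were found in 11 of the 21 members (52.4%), against 34.3% of all genes and 50.5% of the dimmest 2078.

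**Figure D4:**
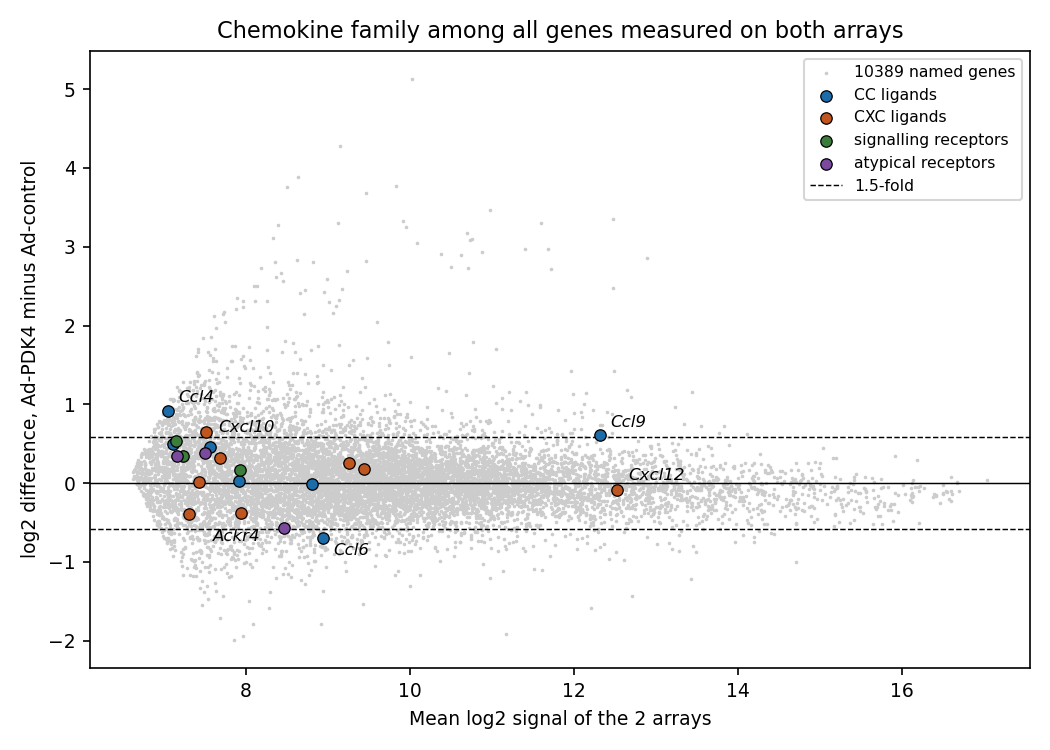
Log2 difference against mean log2 signal for 10389 named genes measured on both arrays (grey) and the 21 family members among them (coloured by role), with dashed lines at 1.5-fold. Most members sit at the dim end, where the grey cloud is wide, and only Ccl9 and Cxcl12 are among the brightest 2078.

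Genes that act with the family were taken from fixed lists and summarised in the same way. Of 41 genes of intracellular chemokine receptor signalling above the floor on either array, 1 was at least 1.5-fold higher, none (0) was lower, and the median over 37 measured on both was 0.093. The higher gene was Grk5, a kinase that desensitises G protein-coupled receptors, with 125 (Ad-control) and 326 (Ad-PDK4), a 2.63-fold higher level. Gnai2, the main inhibitory G protein subunit of leukocytes, gave 0.37. Of the receptor adaptors, Arrb2 gave 0.54 and Arrb1 -0.52, so the arrestins lay on opposite sides of 0.

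Of 27 inducers and regulators of chemokine transcription above the floor, 2 were 1.5-fold higher or more and 3 lower by that fold, with a median of -0.098 over 22. Ticam1, the adaptor of Tlr3, was 2.11-fold higher (196 and 409) and Tlr4, the endotoxin receptor, 1.77-fold higher (101 and 176). Nfkb2, an NF-kappaB subunit, was at least 2.73-fold lower (275 and 50.2), the NF-kappaB inhibitor Nfkbie 1.71-fold lower (179 and 104) and the mRNA decay factor Zfp36l1 1.62-fold lower (5588 and 3421). The inducing cytokines Il6, Il1a, Ifng and Ifnb1 were under the floor on both arrays, and Tnf was above it only in the Ad-control pool (117 and 13.0). Il1b gave 176 and 129, a difference of -0.43. Of 10 proteases, syndecans and other carriers that cleave or display chemokines, 0 lay beyond 1.5-fold.

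A list of chemokines and related genes under other symbols gave a median of -0.28 over 7 genes, and it includes Ackr1. Pf4, a platelet chemokine also known as Cxcl4, gave 558 and 430, a difference of -0.36. Ppbp, the other platelet chemokine, gave 158 and 205 (0.39), so the platelet pair lay on opposite sides of 0. Rarres2, the chemerin gene, and Mif gave -0.28 and -0.32. Cmtm3 was the only member of this list beyond 1.5-fold, at -0.64 (168 and 107).

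Markers of cells that carry or make chemokines did not all move in a common direction, but more Kupffer cell and macrophage markers were lower than higher. Of 9 Kupffer cell and macrophage markers above the floor, 2 (22.2%) were at least 1.5-fold lower, Vsig4 (567 and 246, -1.19) and Clec4f (278 and 126, -1.13), and 0 were higher. Over all genes above the floor on either array, 5.58% were lower and 11.0% higher by that fold. Of the other markers, Cd68 (0.37), Adgre1 (0.21) and Cd5l (0.10) were higher, and Cd163 (-0.47), Lyz2 (-0.36) and Csf1r (-0.13) lower. Marco was above the floor only in the Ad-control pool, at least 1.40-fold lower. The median was -0.25 over the 8 markers measured on both arrays, of which 5 were below 0. Above 0 were 37.5% of these 8, against 51.6% of all genes measured on both arrays. The summed signal of the 11 matched markers was 10514 and 9351, of which Csf1r made up 4978 and 4492. Timd4 and Itgam were under the floor. Of 5 monocyte and neutrophil markers above the floor, S100a8 (0.66) and S100a9 (0.61) were 1.5-fold higher, and Csf3r was at least 2.00-fold lower (201 and 41.3). Elane was lower as well (141 and 120, -0.22). Mpo, above the floor only in the Ad-control pool (129 and 71.4), was at least 1.28-fold lower. The 6 matched markers summed to 846 and 796. Within each of these lists some markers were higher and some lower in the Ad-PDK4 pool. The part of these cells in the chemokine differences was not tested.

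Lymphocyte markers were mostly dim. Of 8 matched T cell markers only Cd8a was measured on both arrays (252 and 239), Cd3d was above the floor on the Ad-PDK4 array only, and Cd3e, Cd3g and Cd4 were under it on both. The 8 summed to 616.5 and 642, but 6 of them were under the floor on both arrays. Sums that hold such signals, here and in the other lists of this paragraph, are no measure of a change. Of 8 matched NK cell markers, Klrd1 (0.52) and Prf1 (-0.19) were measured on both, and Gzma was at least 1.51-fold lower. The other 5, among them Ncr1, Nkg7 and Eomes, were under the floor, and the 8 summed to 721.5 and 701. B and plasma cell markers summed to 1011 and 932, with 0 of 5 beyond 1.5-fold. Dendritic cell markers, a list that includes Xcr1, summed to 472 and 415, with none (0) of 6 measured on both arrays. Itgax was at least 1.56-fold higher and Zbtb46 at least 1.70-fold lower.

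Sinusoidal endothelium markers had a median of -0.00071 over 7 genes and sums of 9486 and 8971, with Pecam1 1.64-fold higher. Hepatic stellate cell markers had a median of -0.23 over 6 and sums of 7057 and 5802, while Des, the list's only gene beyond 1.5-fold, was 1.64-fold higher. Exocrine pancreas markers differed far more than any chemokine, with 7 of 7 higher, a median of 2.98 and sums of 9306 and 73171. The part of such tissue in the chemokine values was not tested.

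**Figure D5:**
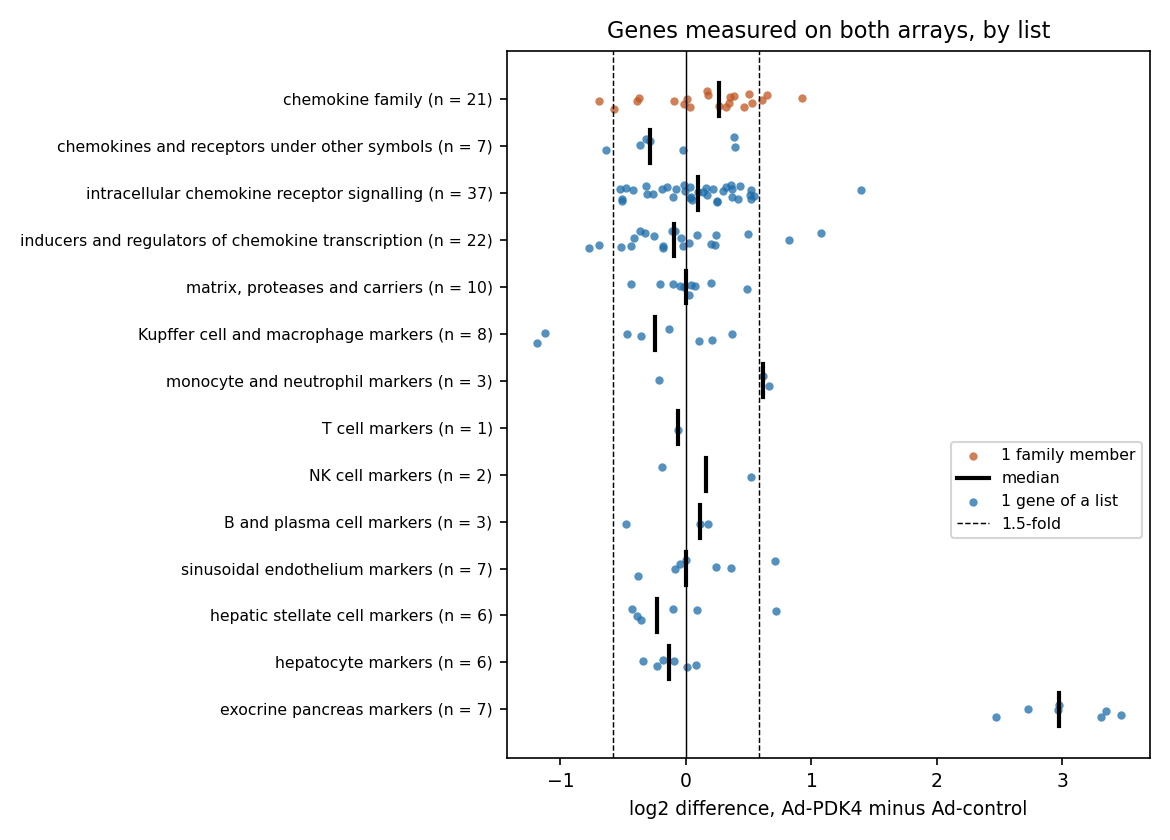
Log2 differences, Ad-PDK4 minus Ad-control, of genes measured on both arrays, 1 row per list. Each point is 1 gene, black bars are list medians and dashed lines mark 1.5-fold. The family (median 0.26 over 21) lies close to 0 beside the exocrine pancreas markers (median 2.98 over 7).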

How the data were processed

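Liver RNA of 1 pool per group was hybridized to 1 array each, from 10 ug of RNA by the Affymetrix procedure, per the labels' protocols. The deposited intensity is a linear signal for each of 45101 probe sets, and the sources used here do not give the authors' summary method or software. Trimmed of the highest and lowest 2%, the mean was 500 on each array, as scaling to a common target gives. The number of arrays limits the precision. Genes were named by the platform annotation from probe sets with 1 symbol (34945 after 64 control probe sets were set aside), and all 54 members were found in RefSeq by their Entrez identifiers. The family had 86 probe sets, and a gene was represented by its brightest probe set, by mean log2 signal. Log2 differences were centred on the median (-0.015) of 20151 probe sets above the floor, the 50th percentile of each array. Where only 1 signal reached the floor, the difference is a bound, taken against the floor of the other array. Calculations used Python 3.11.15 with pandas 2.3.3 and were tested on simulated data. Every member was to be named, and other genes only from fixed lists. The members and lists were chosen with earlier results of these data known. Alternatives were the floor, the centring, quantile normalization, a pseudocount of 50 without a floor, and the choice of probe sets, and centring on spike-in controls was added after seeing the data. The motif letters were also chosen after seeing the data, and were shortened once after a first search with longer NF-kappaB and ISRE forms.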

Additional observations from a re-analysis of the deposited data

How the results depend on the processing

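The count of 3 higher members stayed at 3 without centring, with loess centring, after quantile normalization, with the median over probe sets and without the less specific probe sets (_x_at, _s_at, _a_at), and the count of lower members was 2 or 3 in these settings. Where it was 3, the added member was the receptor Ackr4, at -0.589 without centring and -0.586 after quantile normalization. Over all named genes these settings gave 1153 to 1286 higher and 617 to 753 lower. The floor mattered more. With it at the 30th percentile 13 members were at least 1.5-fold higher and 7 lower, while the counts over all named genes rose from 1335 and 676 to 2714 and 1707. At the 70th percentile 6 members were measured on both arrays, 1 was higher (Ccl9) and 1 lower (Ccl6), and the median was 0.097. Of all named genes, 7365 were measured on both arrays at that floor, with 540 called higher and 276 lower. With no floor and a pseudocount of 50, 9 were higher and 7 lower, with a median of 0.12 (all named genes: 2331 and 1608). With the median over probe sets the family median was 0.0019, over the 16 members then measured on both arrays. In that setting 5 signs turned: Ccl6 to 0.018, Cxcl9 to -0.66 (1.5-fold lower, in place of Ccl6), Ccl25 to -0.076, Cxcl13 to -0.11 and Ccr2 to -0.025. The reference mattered as well: the hybridization controls had a median log2 difference of -0.26 and the poly-A controls one of -0.51. Centred on them, 10 and 17 members were higher, 0 and 0 lower, and the medians were 0.52 and 0.77, while those of all genes moved to 0.27 and 0.53. Over all named genes the counts moved too, to 2832 and 5502 higher and 225 and 65 lower. The cause was not tested. Of the 28 members with a value or bound, 21 had none at the 70th percentile, where depth of signal limits the family most. No paired analysis was possible because each group has 1 array.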

Other observations

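A further 4 probe sets carried several gene symbols and were left out of the family. Their symbols include those of the Ccl19, Ccl21 and Ccl27 genes, which lie in near-identical copies, so no value is given to 1 gene. All 4 were above the floor on both arrays, with log2 differences of -0.30, -0.23, -0.18 and 0.42, and none lay beyond 1.5-fold.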
